A study of Homo sapiens with 12 samples.

Results

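The 9 genes described here are MEN1, DAXX, ATRX, TSC1, TSC2, MTOR, SETD2, MUTYH and CHEK2, a list of genes found recurrently mutated in pancreatic neuroendocrine tumors. They were chosen by name, from 20136 protein-coding genes in the annotation, with a rule that uses no measured value. For each gene, the peaks of every library were collected within 1, 2.5 and 10 kb of its annotated 5′ end and of the start of any of its transcripts.

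The libraries came from BON1, a cell line of a human pancreatic neuroendocrine tumor, and were made by CUT&RUN, in which an antibody brings a nuclease to chromatin and the DNA it cuts free is sequenced. The antibody recognised H3K4me3, the trimethylated lysine of histone H3 that marks active promoters, or was a rabbit anti-mouse IgG, which measures background. Control cells, named BON1/TGL/pQ, were compared with BON1/TGL/HA-Bcl-xL cells, which overexpress a tagged form of Bcl-xL, a protein that blocks cell death. The comparison asks whether the mark differs between the lines. Both lines grew in medium with puromycin, and 500000 cells were used per condition. The peak lists of 11 libraries were used, 5 with H3K4me3 (3 control and 2 HA-Bcl-xL) and 6 with IgG (3 per line). The H3K4me3 sample of HA-Bcl-xL replicate 1 was not analysed here. Values are given in the order control 1, 2, 3 and HA-Bcl-xL 2, 3. The labels do not say whether replicates were separate cultures, so p-values measure the spread between these samples, which may be technical. The labels do not say either whether each line was 1 clone or a pool.

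The products of these genes work in a few connected systems. Menin, the MEN1 product, is a scaffold in complexes that methylate lysine 4 of histone H3, so MEN1 is itself part of the machinery that writes the mark measured here. DAXX and ATRX together place the histone variant H3.3 in heterochromatin and at telomeres, and SETD2 trimethylates lysine 36 of histone H3. TSC1 and TSC2 form a complex that restrains the kinase encoded by MTOR, which drives cell growth. MUTYH removes misplaced adenine from damaged DNA, and CHEK2 encodes a checkpoint kinase activated by DNA breaks.

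The H3K4me3 lists held 10247 to 17711 peaks on chromosomes 1 to 22, X and Y, with the highest number in control replicate 1 and the lowest in control replicate 3. The IgG lists held 1674 to 2113 peaks in control cells and 244 to 268 in HA-Bcl-xL cells. The lists carry no read totals. The number of fragments stacked at each summit was solved from the deposited values, and the weakest H3K4me3 peaks rested on 3 fragments, so a missing peak says only that none was called at this depth. Of the neuroendocrine marker genes reported here, NEUROD1, SCG2, INSM1 and CHGB had a peak within 2.5 kb in all 5 H3K4me3 libraries, while SYP had one in 2 libraries and CHGA and ENO2 in 1 library each. The markers of leukocytes (PTPRC, CD3E), endothelium (CDH5, VWF) and hepatocytes (ALB, APOA1) had none in any H3K4me3 library, and of 3 fibroblast markers COL1A1 had one, in HA-Bcl-xL replicate 2. H3K4me3 was measured on a bulk of cells, so fewer marked cells and less mark per cell cannot be told apart.

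MEN1, TSC2, MTOR, MUTYH and CHEK2, 5 of the 9 genes, carried H3K4me3 peaks in all 5 libraries at under 1 kb from the 5′ end, against 21.3% of all protein-coding genes. ATRX and TSC1 had none in any library at that distance, as did 51.8% of all genes. DAXX had one in control replicate 1 and HA-Bcl-xL replicate 3. SETD2 had one in control replicate 1 and in both HA-Bcl-xL libraries. Within 2.5 kb the same 5 genes had a peak in all 5 libraries, where the figure over all genes was 25.6%, and only ATRX had none, against 46.5% of all genes. Within 1 kb, no member had peaks in every HA-Bcl-xL library with none in control, as 0.844% of all genes did, and none had the reverse (0.248% of all genes).

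Counted per library within 1 kb, 7, 5 and 5 of the 9 genes had a peak in the control libraries, and 6 and 7 did in the HA-Bcl-xL libraries. The means were 5.67 ± 1.15 genes (SD, n = 3) in control and 6.50 ± 0.707 (SD, n = 2) in HA-Bcl-xL cells. The difference of 0.833 genes was smaller than the pooled SD between replicates, 1.03, and the groups overlapped. When each list was reduced to its 10247 strongest peaks, the difference was -0.167, also smaller than that SD. Over all protein-coding genes, the share with such a peak was 28.2 to 40.4% in control and 36.5 to 38.1% in HA-Bcl-xL libraries.

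**Figure D1:**
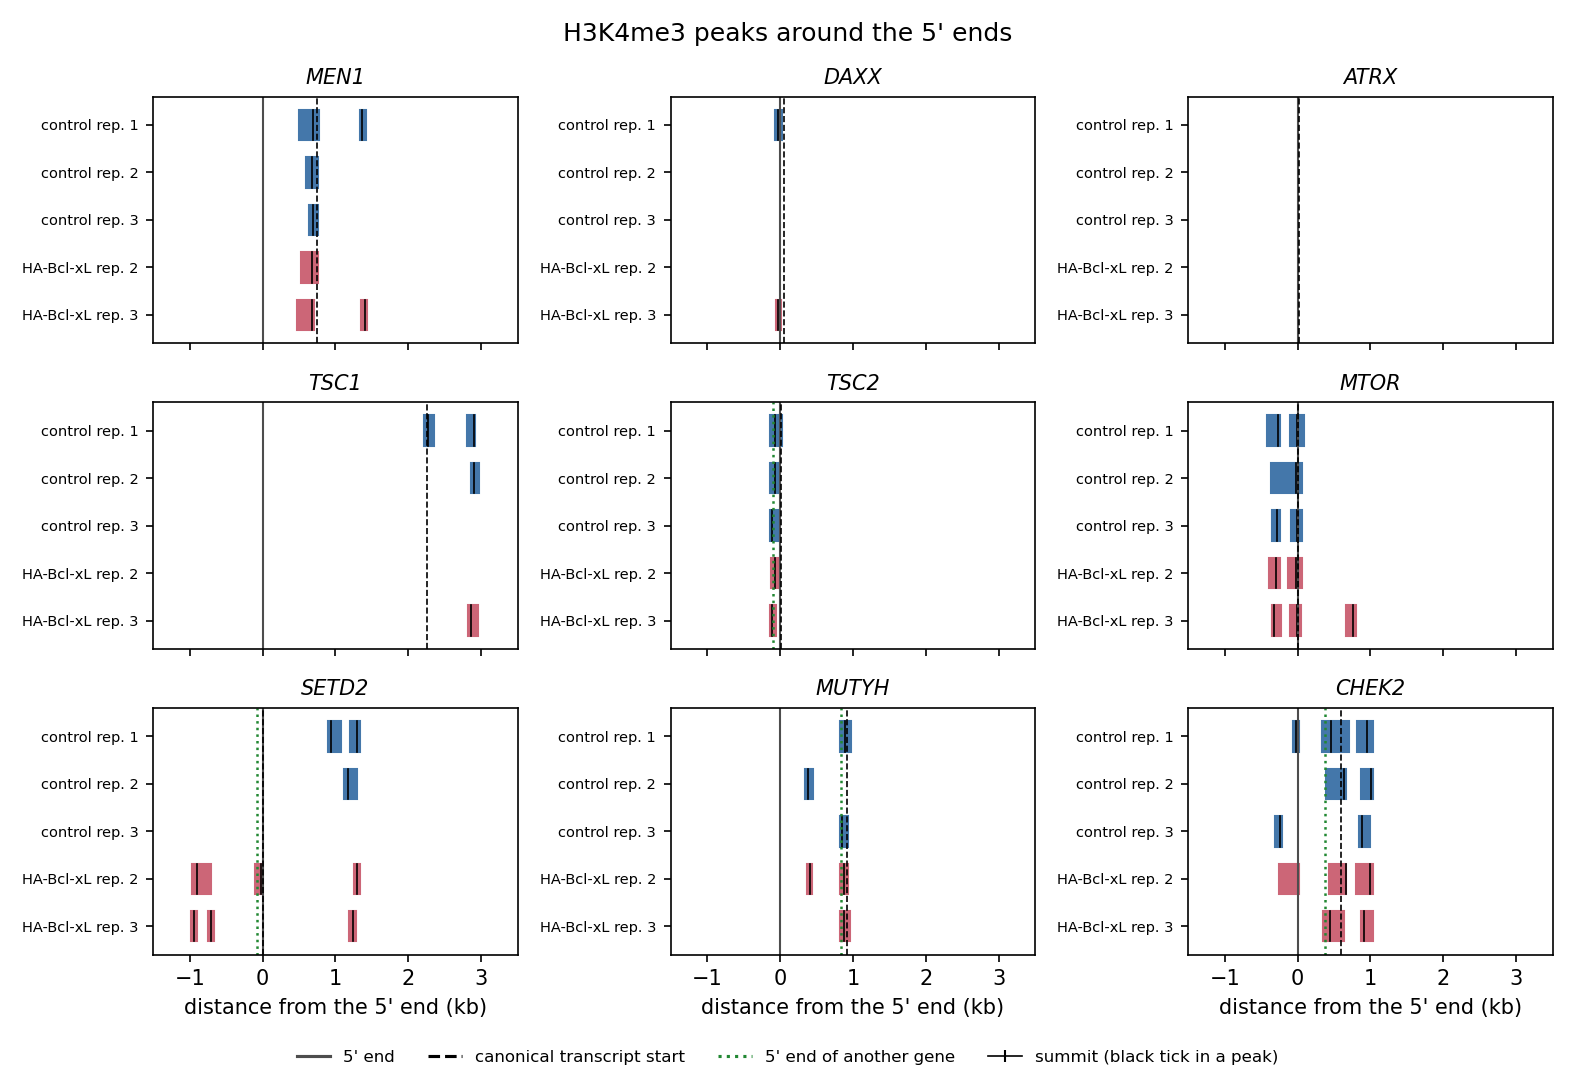
H3K4me3 peaks around each gene's 5′ end (x axis, distance in kb, positive in the direction of transcription) in the 5 H3K4me3 libraries (y axis). Boxes are peaks (blue control, red HA-Bcl-xL), black ticks are summits, and lines mark the 5′ end (solid), the canonical transcript start (dashed) and the 5′ end of another gene within 1 kb (dotted, green). The peaks of MEN1, TSC1 and MUTYH lie downstream of the 5′ end, those of CHEK2 lie on both sides of it, and ATRX has none.

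MEN1 (chromosome 11, GRCh37, minus strand, 5′ end at 64578766) had a peak at its canonical transcript start, which the annotation places 743 bp downstream of the 5′ end. Bases under peaks within 2.5 kb, the length used as the level of the mark here, were 346, 160 and 116 in the control libraries against 233 and 316 in the HA-Bcl-xL libraries. The HA-Bcl-xL values lay inside the control range. The peak nearest the canonical start ran from 476 to 770 bp past the 5′ end over the 5 libraries, with its summit at -44, -67 and -49 bp from the canonical start in control and at -70 and -66 bp in HA-Bcl-xL cells (negative is upstream). Its summit held 14, 12 and 9 fragments in the control libraries against 11 and 9 in the HA-Bcl-xL libraries. A smaller peak over the coding part of exon 2, between 1333 and 1436 bp, was called in control replicate 1 and HA-Bcl-xL replicate 3 only.

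All 5 libraries also had a peak at the other end of MEN1, between 7486 and 7728 bp past the 5′ end, in the untranslated part of exon 10. Its summits lay 440 to 506 bp from the 5′ end of MAP4K2, a kinase gene next to MEN1, whose start was the nearest. By the authors' -log10 p this peak stood at percentile 93.1, 31.3 and 86.7 of its own list in control and at 93.0 and 91.5 in HA-Bcl-xL cells. It ranked above the promoter peak of MEN1 in 4 of the 5 libraries, the exception being control replicate 2. A window of 10 kb takes this peak into the MEN1 level, which became 563, 382 and 321 bases in control against 423 and 431 in HA-Bcl-xL cells. In control replicate 2 it also takes in a peak of 82 bp outside MEN1, with its summit 187 bp from the MAP4K2 start.

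ATRX (chromosome X, minus strand, 5′ end at 77041719) had 0 bases under peaks in all 11 libraries, and none was found within 10 kb of any of its 22 annotated transcript starts. Its canonical start lies 17 bp from the 5′ end, so the choice of start does not move the window. Of 868 protein-coding genes on chromosome X, 26 (3.00%) had a peak within 1 kb in all 5 libraries and 253 (29.1%) in at least 1, against 21.3% and 48.2% of all genes. The part that its place on chromosome X plays in the ATRX values was not tested.

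DAXX (chromosome 6, minus strand, 5′ end at 33290793) had 96, 0 and 0 bases under peaks within 2.5 kb in the control libraries against 0 and 79 in the HA-Bcl-xL libraries. In each line 1 library had a peak and at least 1 had none. The peaks in control replicate 1 (-73 to +22 bp) and HA-Bcl-xL replicate 3 (-60 to +18 bp) straddled the 5′ end, with summits at -90 and -80 bp from the canonical start that held 10 and 8 fragments. HA-Bcl-xL replicate 2 had a peak 4891 bp past the 5′ end instead, 147 bp from the start of ZBTB22, a zinc finger gene. The 250 bases before the DAXX 5′ end (GRCh37 chr6:33290794-33291043, minus strand) hold both summits and are shown for that reason. They are written 5′ to 3′ toward the gene, with capitals at the CCAAT box (CCAAT on either strand, so also ATTGG) and at the GC box (GGGCGG on either strand, so also CCGCCC).
DAXX: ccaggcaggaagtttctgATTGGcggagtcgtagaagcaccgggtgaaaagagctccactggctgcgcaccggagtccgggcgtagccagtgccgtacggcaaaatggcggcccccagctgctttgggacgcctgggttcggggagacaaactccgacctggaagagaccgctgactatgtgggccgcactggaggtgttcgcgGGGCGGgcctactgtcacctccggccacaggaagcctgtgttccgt
With 64% GC and 20 CpG, against medians of 59.6% and 14 over 20132 genes with this window, this promoter was at percentile 62.5 for GC, and 29.9% of the 2605 genes within 2 percentage points of its GC had a peak in all 5 libraries. DAXX lies in a part of chromosome 6 with few peaks. In the 5 Mb that end at its 5′ end, a length chosen with these data known, 3 of 181 protein-coding genes (1.66%) had a peak within 1 kb in all 5 libraries and 41 (22.7%) in at least 1. On the rest of chromosome 6 the counts were 179 of 867 (20.6%) and 458 (52.8%). The H3K4me3 lists also hold 75 to 135 peaks each on the 7 alternative haplotype contigs of chromosome 6, and the part these play in the DAXX values was not tested.

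TSC1 (chromosome 9, minus strand, 5′ end at 135822261) had no peak within 1 kb of the 5′ end, but its canonical transcript starts 2258 bp downstream. Within 1 kb of any transcript start it had 244, 98 and 0 bases under peaks in the control libraries against 0 and 144 in the HA-Bcl-xL libraries. Each line thus had at least 1 library with and 1 without a peak. Only control replicate 1 had a peak over the canonical start itself, with its summit 9 bp past it in exon 1 and 14 fragments. The other TSC1 peaks (control replicates 1 and 2 and HA-Bcl-xL replicate 3) lay 600 to 649 bp past the canonical start in intron 1 and had summits of 5, 6 and 8 fragments. Those summits lay 16 to 33 bp from the 5′ end of GFI1B, a gene for a transcriptional repressor of blood cell development, so they cannot be given to TSC1 alone.

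TSC2 (chromosome 16, plus strand, 5′ end at 2097968) had a short peak in all 5 libraries. It covered 154, 100 and 119 bases in the control libraries against 110 and 82 in the HA-Bcl-xL libraries, and the groups overlapped. Its summit held 18, 6 and 11 fragments in control against 8 and 7 in HA-Bcl-xL cells, so control replicate 1 stood highest and control replicate 2 lowest. For control replicate 1, 14 fragments matched the deposited values within the same tolerance as 18, less closely, and would also be the highest. TSC2 shares this peak with NTHL1, a DNA glycosylase gene of base excision repair that starts 101 bp upstream on the opposite strand, and the values of the 2 genes cannot be separated. The 100 bases between both 5′ ends (GRCh37 chr16:2097868-2097967, plus strand) are shown because the peak sits on them, with the GC box in capitals.
TSC2 to NTHL1: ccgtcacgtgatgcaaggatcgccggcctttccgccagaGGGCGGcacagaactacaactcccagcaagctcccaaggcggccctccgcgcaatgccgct
Summits of control replicates 1 and 2 and HA-Bcl-xL replicate 2 lay inside this stretch, at -73, -74 and -68 bp from the TSC2 5′ end. Those of control replicate 3 and HA-Bcl-xL replicate 3 lay just beyond the NTHL1 start, at -107 and -115 bp. Further peaks of 4 fragments were called inside the gene, 37144 bp past the 5′ end in control replicate 1 and over coding exon 11 in HA-Bcl-xL replicate 2. The peak of control replicate 1 lay in an intron of the canonical transcript, but overlapped an annotated start of another TSC2 transcript.

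MTOR (chromosome 1, minus strand, 5′ end at 11322613) had the tallest promoter peak of the 9 genes in each of the 5 libraries. That peak was 198, 415 and 149 bp wide in the control libraries against 184 and 157 bp in the HA-Bcl-xL libraries. Bases under all peaks within 2.5 kb were 372, 415 and 261 in control against 330 and 422 in HA-Bcl-xL cells. Both lines spanned much of the same range of summed bases, with the lowest value in control replicate 3. The highest summit held 24, 19 and 13 fragments in control against 19 and 18 in HA-Bcl-xL cells. The tallest peak stood at percentile 83.2 to 94.9 of its own list. A companion peak with summits at -317 to -265 bp from the 5′ end and 10 to 13 fragments was called in 4 libraries, and in control replicate 2 a single peak of 415 bp covered both places. The 250 bases before the 5′ end (GRCh37 chr1:11322614-11322863, minus strand) hold the highest summit of every library, at -28 to -4 bp from the 5′ end, and most of the gap to the companion peak. Capitals mark the CCAAT box and the GC box.
MTOR: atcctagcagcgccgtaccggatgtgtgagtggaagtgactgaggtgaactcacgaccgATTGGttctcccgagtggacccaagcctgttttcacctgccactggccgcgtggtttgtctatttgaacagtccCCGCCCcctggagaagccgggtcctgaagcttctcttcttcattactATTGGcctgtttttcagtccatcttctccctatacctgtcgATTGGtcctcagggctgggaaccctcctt
It has 3 CCAAT matches, and its 11 CpG and 54.8% GC are below the medians over all genes. HA-Bcl-xL replicate 3 alone had a further peak in intron 1, 666 to 801 bp past the 5′ end, which supplied 136 of its 422 bases.

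SETD2 (chromosome 3, minus strand, 5′ end at 47205603, which is also the canonical start) had 334, 183 and 0 bases under peaks within 2.5 kb in the control libraries against 435 and 266 in the HA-Bcl-xL libraries. Control replicate 3, the library with the fewest peaks, was the only one without. The start itself lay under no peak in any library. A peak in intron 1, starting 895 to 1259 bp past the start, was present in the 4 libraries other than control replicate 3. Peaks upstream, between -983 and -669 bp from the start, were called in both HA-Bcl-xL lists and none of the control lists. These upstream peaks ranked at percentile 14.1 in replicate 2 and at 44.8 and 1.96 in replicate 3 of their own lists, with 9, 11 and 7 fragments. They supplied 260 bases of the SETD2 level in replicate 2 and 81 and 82 in replicate 3. Their summits lay nearest to the start of KIF9-AS1 (833, 634 and 874 bp), the gene on the opposite strand, so they cannot be given to SETD2 alone. HA-Bcl-xL replicate 2 alone had a peak, of 8 fragments, from -103 to -12 bp, with its summit between the starts of SETD2 and of KIF9-AS1, which gives a long noncoding RNA and begins 73 bp away on the other strand. The 72 bases between those starts (GRCh37 chr3:47205604-47205675, minus strand) are shown because they form the shared promoter where 4 libraries had no peak, with the GC box in capitals.
SETD2 to KIF9-AS1: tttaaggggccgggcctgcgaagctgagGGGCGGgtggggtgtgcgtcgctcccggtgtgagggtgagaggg
The stretch has 70.8% GC, and the 250 bases before the 5′ end have 69.6%, at percentile 78.0 of all genes.

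MUTYH (chromosome 1, minus strand, 5′ end at 45806565) had 149, 105 and 103 bases under peaks in the control libraries against 198 and 137 in the HA-Bcl-xL libraries. The groups overlapped, and the highest value was that of HA-Bcl-xL replicate 2. In 4 libraries the peak lay 818 to 968 bp past the 5′ end, over the canonical start at 923 bp and the 5′ end of TOE1 at 841 bp, a gene for an RNA deadenylase on the opposite strand. TOE1 had the same bases under peaks within 2.5 kb in every library, so these values cannot be given to MUTYH alone. Control replicate 2 had its only peak elsewhere, 347 to 451 bp past the 5′ end, and HA-Bcl-xL replicate 2 had both. The highest summit held 17, 12 and 9 fragments in control against 16 and 11 in HA-Bcl-xL cells.

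CHEK2 (chromosome 22, minus strand, 5′ end at 29138410) had the most bases under peaks of the 9 genes on average, with 654, 447 and 241 in the control libraries against 733 and 462 in the HA-Bcl-xL libraries. Each line had one library well above its other libraries, and the ranges overlapped. The length came from several peaks of moderate height rather than from a tall one: its highest summit held 13, 11 and 9 fragments in control against 13 and 11 in HA-Bcl-xL cells, below MTOR in every library. A peak in intron 1, 804 to 1038 bp past the 5′ end, was present in all 5 libraries. A peak reaching across the canonical start (602 bp) and toward the start of HSCB (383 bp), a cochaperone gene of iron-sulfur cluster assembly on the opposite strand, was present in all but control replicate 3. HSCB had the same bases under peaks within 2.5 kb in every library, so these values cannot be given to CHEK2 alone. A peak at the 5′ end itself was called in control replicate 1 and HA-Bcl-xL replicate 2, and control replicate 3 had one from -304 to -220 bp.

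**Figure D2:**
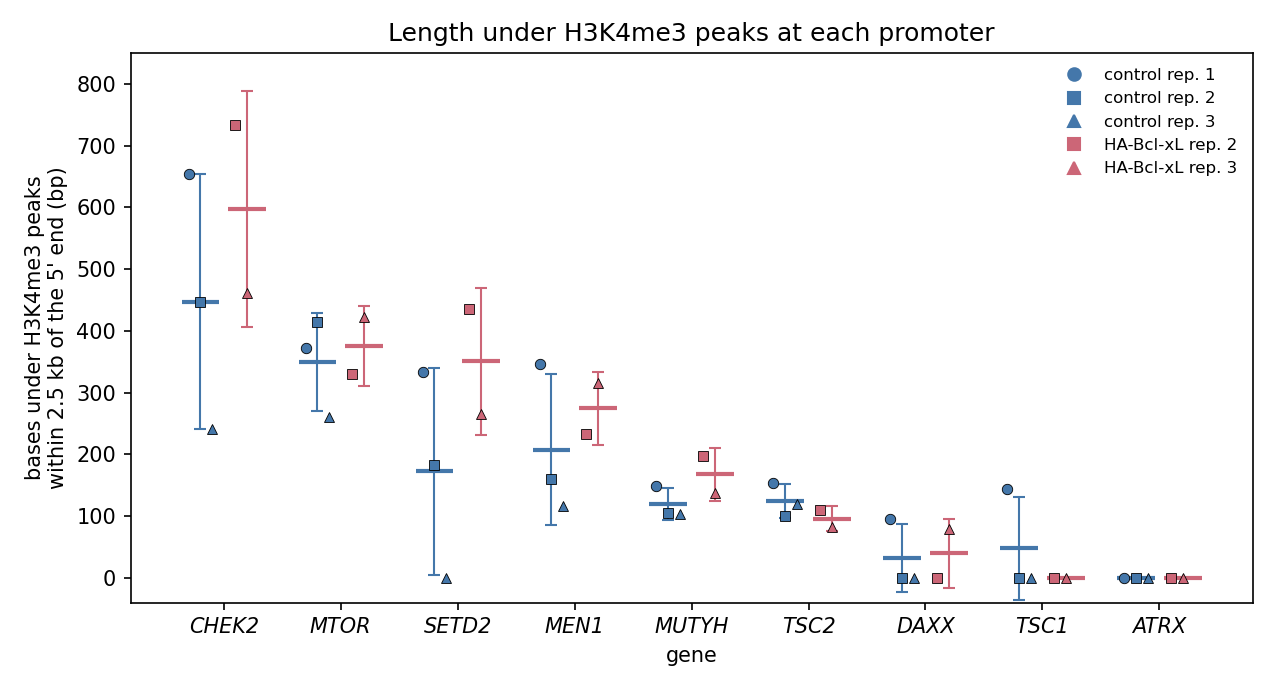
Bases under H3K4me3 peaks within 2.5 kb of the 5′ end (y axis, bp) for each gene (x axis, by mean over the libraries). Each point is a library (blue control, red HA-Bcl-xL), thick bars are group means and error bars are 1 SD (n = 3 and n = 2). CHEK2 and MTOR are highest, ATRX is at 0, and the ranges of the lines overlap for every gene plotted.

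Over the 5 H3K4me3 libraries the level fell from CHEK2 (507 ± 193 bases, SD) through MTOR (360.0 ± 66.5), SETD2 (244 ± 165), MEN1 (234 ± 98.3), MUTYH (138 ± 38.8) and TSC2 (113 ± 26.7) to DAXX (35 ± 48.3), TSC1 (28.8 ± 64.4) and ATRX (0). From CHEK2 to TSC2, each neighbouring pair in this order differed by less than the larger of its SDs. These SDs ignore that the genes were measured in the same libraries. Compared within libraries, MEN1 was above MUTYH in all 5 (346, 160, 116, 233 and 316 bases against 149, 105, 103, 198 and 137). The other neighbouring pairs from CHEK2 to TSC2 changed order between libraries. TSC2 was above DAXX in all 5 libraries. DAXX and TSC1 differed by less than their SDs. The median over all genes was 19.6 bases, and that of the 5151 genes with a peak within 2.5 kb in all 5 libraries was 256 bases, so MUTYH, TSC2 and MEN1 were under the middle of the promoters found in every library.

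No IgG library had a peak within 10 kb of the 5′ end of any of the 9 genes, a window in which 4.47% of all genes had an IgG peak in at least 1 library. Deep in gene bodies, IgG peaks were called in TSC1 (control replicate 1) and MTOR (control replicates 1 and 3), each on 3 or 4 fragments. The MTOR peak of control IgG replicate 1 lay 495 bp from an internal transcript start, so MTOR was the 1 member with an IgG peak within 1 kb of any start, against 2.27% of all genes.

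H3K4me3 was compared with IgG for each of the 20136 genes, by a two-sided exact permutation test on log2(bases under peaks within 2.5 kb + 1). The antibody labels were permuted within each line over all 200 splits, and p-values were adjusted by Benjamini and Hochberg over all genes. MEN1, TSC2, MTOR, MUTYH and CHEK2 passed an adjusted p of 0.05, each with the smallest p the design allows (exact p 0.005, adjusted 0.0196), as did 25.6% of all genes. A gene with a peak in all 5 H3K4me3 libraries and in no IgG library always gets this p, so these passes restate presence. On this scale, where all 6 IgG libraries are at 0, the difference was 7.82 for MEN1, 6.77 for TSC2, 8.49 for MTOR, 7.13 for MUTYH and 8.94 for CHEK2. With the start of any transcript, MTOR fell to 6.30 (adjusted exact permutation p 0.0176), since 2 IgG libraries then had a peak. SETD2 missed the threshold (difference 6.86, exact permutation p 0.02, adjusted 0.0577), and passed it with the start of any transcript (adjusted exact permutation p 0.0176) or without control H3K4me3 replicate 3 (adjusted 0.0327). The pass with any transcript start rests on a peak of 78 bp and 3 fragments in intron 7, called in control H3K4me3 replicate 3. That peak lay 62092 bp past the 5′ end and 2004 bp from an internal transcript start, so it is not signal at the SETD2 5′ end. In the opposite direction, the SETD2 difference was 5.08 within 1 kb (adjusted exact permutation p 0.156), 4.53 with a -log10 q of at least 5 (adjusted 0.239) and 6.09 without control H3K4me3 replicate 1 (adjusted 0.113). DAXX had a difference of 2.68 (exact permutation p 0.2, adjusted 0.438). It was 1.10 without HA-Bcl-xL H3K4me3 replicate 3 and 1.58 without control H3K4me3 replicate 1, the libraries with its peak, 4.26 without HA-Bcl-xL H3K4me3 replicate 2, and 4.31 with the start of any transcript (exact permutation p 0.05, adjusted 0.120). The value of 4.31 takes in the HA-Bcl-xL replicate 2 peak that lies 147 bp from the ZBTB22 start. TSC1 had a difference of 1.197 and ATRX of 0 (exact permutation p 1 each). The TSC1 difference was 0 without control H3K4me3 replicate 1 and 4.22 with the start of any transcript (exact permutation p 0.08, adjusted 0.177). The value of 4.22 takes in the peaks whose summits lie at the GFI1B start. With peaks of a -log10 q of at least 5, TSC2 no longer passed (difference 4.06, adjusted exact permutation p 0.239). Without any one of the HA-Bcl-xL IgG libraries, 0 genes and 0 members passed. The smallest two-sided exact p is then 0.0167 over 120 splits, because with equal numbers of both antibodies in each line the mirror image of a split counts as well. In those fits 5148 genes had an unadjusted p under 0.05, and the 5 differences were the same.

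**Figure D3:**
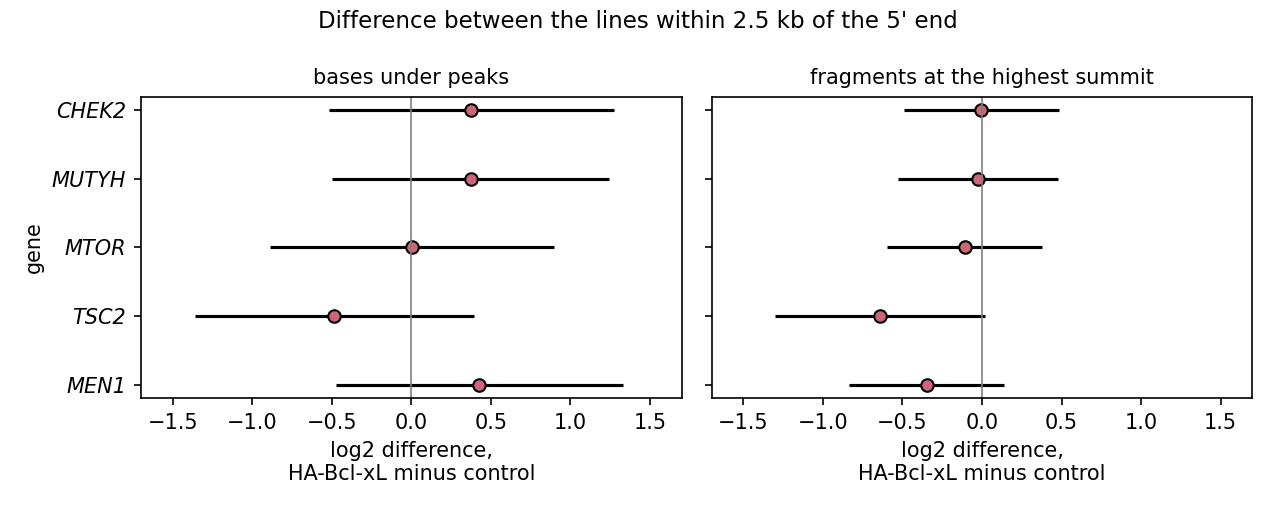
Difference between the lines within 2.5 kb of the 5′ end for the 5 genes with a peak in all 5 H3K4me3 libraries, as log2 HA-Bcl-xL minus control (x axis; points are limma estimates, bars 95% intervals). The left panel is for bases under peaks, the right panel for fragments at the highest summit, and every bar includes 0.

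HA-Bcl-xL and control cells were compared with limma on 5151 genes with a peak within 2.5 kb in all 5 H3K4me3 libraries, after centring each library on its median. For bases under peaks the log2 difference was 0.43 for MEN1 (95% interval -0.48 to 1.33), 0.38 for CHEK2 (-0.52 to 1.27), 0.37 for MUTYH (-0.50 to 1.24), 0.00 for MTOR (-0.89 to 0.90) and -0.48 for TSC2 (-1.36 to 0.39). None passed an adjusted p of 0.05 in limma (0.996 to 0.999), and the intervals allow changes of more than 1 on the log2 scale for MEN1, CHEK2, MUTYH and TSC2. The share of all genes that passed was 0%, while 269 (5.22%) had an unadjusted p under 0.05. With 1 library left out, the estimate ranged from 0.15 (without HA-Bcl-xL replicate 3) to 0.70 (without HA-Bcl-xL replicate 2) for MEN1. It ranged from 0.09 (without HA-Bcl-xL replicate 2) to 0.65 (without HA-Bcl-xL replicate 3) for CHEK2, and from 0.16 to 0.58 for MUTYH without the same libraries. For TSC2 it ranged from -0.64 (without HA-Bcl-xL replicate 2) to -0.31 (without control replicate 3). For CHEK2 the estimate also depended on the peaks admitted: it was 0.99 with equal list lengths (interval 0.19 to 1.78, unadjusted limma p 0.0204, adjusted 0.816) and 1.17 with a -log10 q of at least 5 (interval 0.10 to 2.25, unadjusted limma p 0.0344, adjusted 0.948).

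Fragments at the highest summit gave smaller intervals. The log2 difference was -0.64 for TSC2 (95% interval -1.30 to 0.02), -0.35 for MEN1 (-0.83 to 0.14), -0.11 for MTOR (-0.60 to 0.38), -0.03 for MUTYH (-0.53 to 0.48) and -0.00 for CHEK2 (-0.49 to 0.48). None passed in limma (adjusted p 0.884 for TSC2 and 0.941 to 0.998 for the others), and 0% of all genes did, with 289 (5.61%) at an unadjusted p under 0.05. The TSC2 difference was -1.04 without control replicate 2, whose summit held 6 fragments (unadjusted limma p 0.00158, adjusted 0.917). It was -0.45 without control replicate 1, whose summit held 18 (or 14). With a 1 kb window the TSC2 difference was -0.63 (interval -1.24 to -0.02, unadjusted limma p 0.0426, adjusted 0.831).

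**Figure D4:**
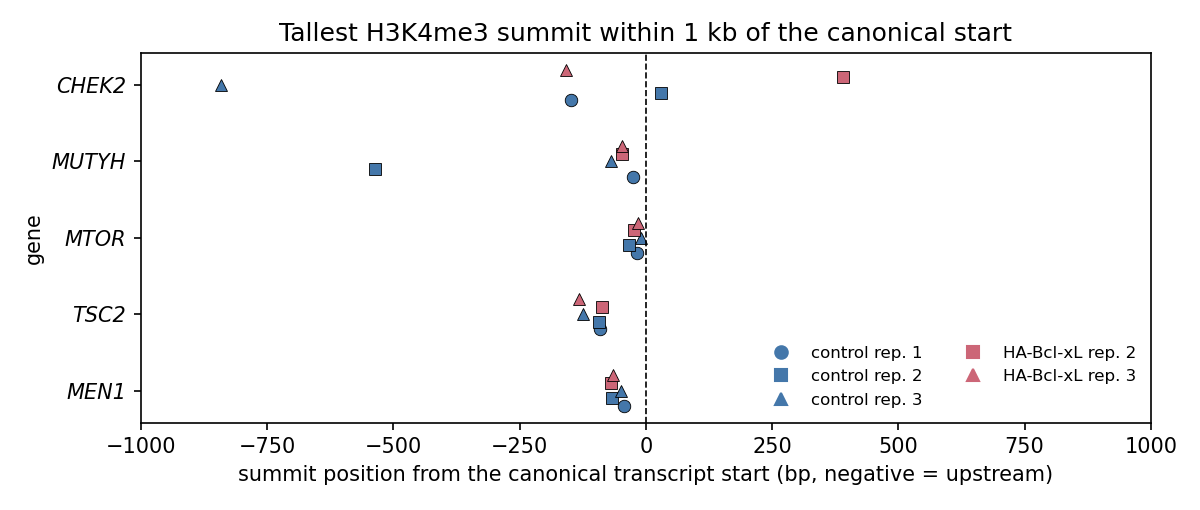
Position of the tallest H3K4me3 summit within 1 kb of the canonical transcript start (x axis, bp, negative is upstream) in each H3K4me3 library for the 5 genes that have one in all 5 libraries (y axis). Colours give the line and shapes the replicate; MTOR, MEN1 and TSC2 stay within 24, 26 and 47 bp, while CHEK2 spans 1231 bp.

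The place of the tallest summit differed in its spread between the genes. It moved over 24 bp for MTOR and 26 bp for MEN1 across the 5 libraries, at percentiles 8.03 and 9.68 of the spread among 4434 genes with such a summit in every library, where the median spread was 127 bp. For TSC2 it moved over 47 bp. For these 3 genes and MUTYH, 4 of the 5 members, every summit lay upstream of the canonical start, as it did in every library for 37.6% of the 4434 genes. The MUTYH summit was at -69 to -26 bp in 4 libraries and at -537 bp in control replicate 2. The CHEK2 summit ranged from -841 bp (control replicate 3) to 390 bp past the start (HA-Bcl-xL replicate 2), a spread at percentile 97.2, and its libraries differed within each line. This summit was picked among peaks of similar height. In control replicate 3 it held 9 fragments, and the intron 1 peak held 8. In HA-Bcl-xL replicate 3 peaks tied at 11, and the one nearer the canonical start was taken. The intron 1 peak itself was present in all 5 libraries.

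Of the tallest summits within 1 kb of the canonical start, that of MEN1 lay nearer this start than the 5′ end in every library, that of MUTYH in all but control replicate 2 and that of CHEK2 in all but control replicate 3. The canonical transcripts of MEN1, MUTYH and CHEK2 start 743, 923 and 602 bp downstream of the 5′ end, and that of TSC1 2258 bp. For MEN1 the 250 bases before the 5′ end have 41.2% GC and 4 CpG, and those before the canonical start 67.2% and 18. For TSC1 the values are 51.2% and 1 CpG against 62.0% and 22, and for MUTYH 52.8% and 3 CpG against 71.6% and 34. CHEK2 had 60% and 14 CpG before the 5′ end and 58.8% and 13 before the canonical start, so it did not share the rise of the other 3 genes. Over all genes the median before the canonical start was 63.2% GC and 18 CpG. Of the 4 motifs searched on both strands in the 250 bases before the 5′ end of the members other than ATRX, the GC box occurred in DAXX, TSC2, MTOR, SETD2 and CHEK2 and in 48.8% of all genes. The CCAAT box (33.1% of all genes) occurred in DAXX, MTOR and MUTYH. The ETS core CCGGAA (15.5% of all genes) occurred in SETD2, and the TATA box TATAAA (10.1%) in none of them. These are matches of letters and not sites shown to be bound. Motifs were not searched before the canonical starts, which for MEN1, TSC1, MUTYH and CHEK2 lie 602 to 2258 bp downstream.

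**Figure D5:**
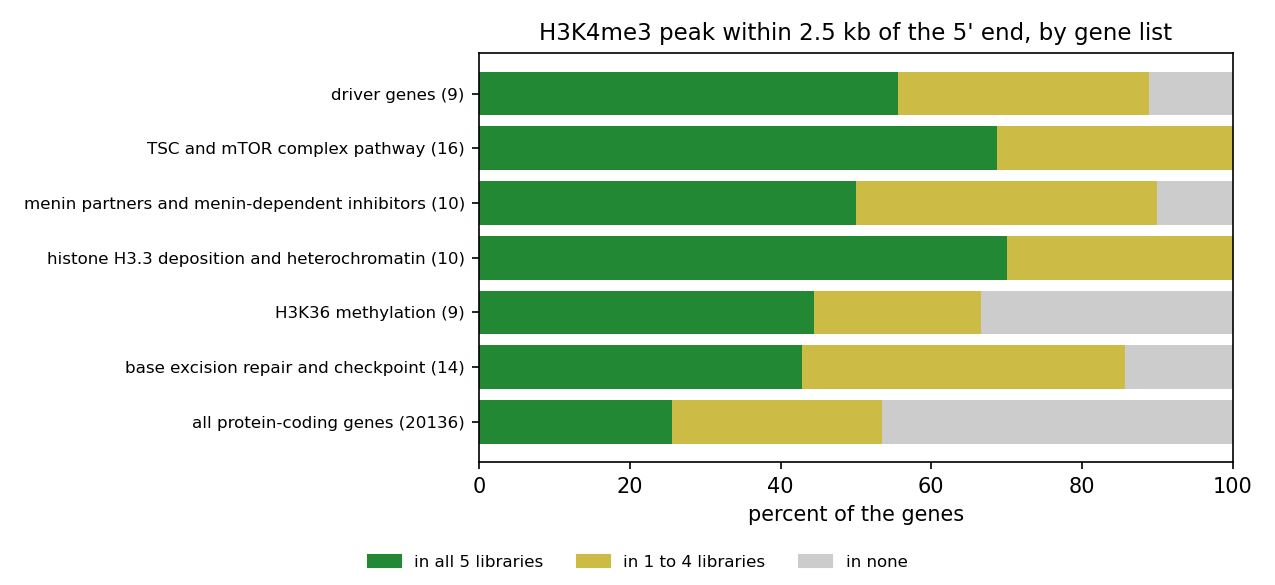
Percent of the genes of each list (x axis) where H3K4me3 peaks lie within 2.5 kb of the start of the gene, in all 5 libraries (green), in 1 to 4 (yellow) or in none (grey), with the number of genes of each list in brackets (y axis). The bottom bar is all protein-coding genes, of which 25.6% have a peak in all 5 libraries.

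Genes that work with the 9 were described from 5 lists, within 2.5 kb of the 5′ end, beside the 25.6% of all genes with a peak in all 5 libraries and the 46.5% with none. In the TSC and mTOR complex pathway, 11 of 16 genes had a peak in all 5 libraries, with 0 in none. The longest were AKT1S1, an inhibitory subunit of mTOR complex 1 (425 bases on average), and RHEB, the GTPase that the TSC complex switches off (417). The shortest were AKT1, a kinase upstream of the TSC complex (86.6), and DEPDC5, which restrains mTOR complex 1 when amino acids are low (18.2). Of 10 genes for menin partners and menin-dependent inhibitors, 5 had a peak in all 5 libraries. RBBP5 (632 bases) and ASH2L (278), core subunits of the H3K4 methyltransferases, were longest. CDKN1B, a cell cycle inhibitor whose expression depends on menin, had 0 bases in every library, and PSIP1, which tethers menin to chromatin, 18.4 on average.

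For histone H3.3 deposition and heterochromatin, 7 of 10 genes had a peak in all 5 libraries, with 0 in none. SETDB1, a methyltransferase for lysine 9 of histone H3 (483 bases), and HIRA, the other H3.3 chaperone (313), were longest. H3-3B, which encodes H3.3 itself (39.6), and SUV39H1, another methyltransferase for lysine 9 and also on the X chromosome (17.4), were shortest. Of 9 genes around methylation of lysine 36, 4 had a peak in all 5 libraries, with 3 in none. IWS1, which helps bring SETD2 to transcribing polymerase, had 661 bases and the demethylase gene KDM4A 468, and the readers MORF4L1 and MSH6 had 0. Of 14 genes of base excision repair and checkpoint, 6 had a peak in all 5 libraries, with 2 in none, NTHL1 being counted here through the peak it shares with TSC2. APEX1, the endonuclease that follows the glycosylases, had 582 bases, and NEIL1, a glycosylase, and MDC1, an adaptor at DNA breaks, had 0.

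In the test against IgG, 11, 5, 7, 4 and 6 genes of these lists were higher in H3K4me3, the same numbers as had a peak in all 5 libraries. No gene of the lists had an IgG peak within 2.5 kb, so the test only restated those counts. Of all 20136 genes, 25.6% were higher in H3K4me3 and 0 lower. The median log2 difference was 7.59, 6.84, 7.27, 3.997 and 6.72, beside 6.86 for the 9 genes and 1.29 over all genes tested. In the limma comparison of the lines, 0 of the 11, 5, 7, 4 and 6 genes tested passed. Their median log2 differences in bases under peaks, in the same order, were -0.20, -0.42, 0.04, 0.25 and -0.09, beside 0.37 for the 5 members tested and -0.02 over all 5151 genes. The members' median was 0.15 without HA-Bcl-xL replicate 3, 0.16 without HA-Bcl-xL replicate 2, 0.24 without control replicate 3 (where SETD2 was also tested) and 0.00 with a 10 kb window. In the other direction, it was 0.49 without centring. It was 0.55 with equal list lengths and 0.46 with a -log10 q of at least 5, settings in which TSC2 was not tested.

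Genes whose levels were most like a member's were found by the mean absolute difference in log2(bases within 2.5 kb + 1) over the 5 H3K4me3 libraries. For TSC2, MUTYH and CHEK2 the nearest gene was the one that shares the promoter, NTHL1, TOE1 and HSCB, with a difference of 0. Apart from those, TSC2 was nearest to TMEM245 and HMGN4 (0.12 each), MUTYH to CLNS1A and SPR (0.08 each) and CHEK2 to AK6 and RAD17 (0.12 each). MEN1 was nearest to RAD54B and CCSAP (0.12 each) and PSMB7 (0.14), and MTOR to BZW1, IK and NDUFA2 (0.10 each). By presence alone within 1 kb, each of the 5 members with a peak in all 5 libraries shared that pattern with 4288 other genes, the other 4 members among them. The pattern of DAXX occurred in 252 other genes and that of SETD2 in 442.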

How the data were processed

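CUT&RUN peak lists of 11 libraries were used, 1 list per library, and the H3K4me3 sample of HA-Bcl-xL replicate 1 was not used here. Per the submitters' processing notes the tools were bcl2fastq 2.20, Trimmomatic 0.36, Bowtie2 2.2.9, MACS2 2.1.1 and deepTools 3.5.1 on hg19 (GRCh37). Calling parameters, any control used in calling and the treatment of duplicates are not given in the sources used here. For each peak the authors deposited a score, a fold enrichment over local background, a -log10 p and a -log10 q, and the position of its summit. The deposited scores equal the -log10 q times 10, rounded down to whole numbers, and no list held a -log10 q under 2. The authors' scores, folds and -log10 values served to filter and rank peaks within a list.

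Fragments at a summit were solved from fold and -log10 p, taking fold as (n + 1) / (background + 1) and p as a Poisson tail. In 95.9 to 99.97% of a list's peaks, a whole number n matched to within 0.001 of the -log10 p. Such a match with no second whole number within 0.01 was found in 93.0 to 95.6% of an H3K4me3 list's peaks and 79.2 to 98.9% of an IgG list's, and the closest match was used. Genes were the 20136 protein-coding genes of GENCODE lifted to GRCh37, the 5′ end being the most upstream annotated base, and a peak was counted with at least 1 bp in the window. A group's level was the bases under peaks within 2.5 kb. H3K4me3 was tested against IgG by exact permutation over every gene (pseudocount 1), and the lines by limma 3.58.1 in R 4.3.3 on log2 values, with Benjamini-Hochberg adjustment at 0.05 over all genes tested. Both steps were tested on simulated data. Python 3.11.15, numpy 2.4.6, scipy 1.17.1, pandas 2.3.3 and matplotlib 3.10.9 were used.

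The members, the 5 lists of related genes, the markers and the tests were chosen with earlier results of these data known. The text names every member, each gene with a 5′ end within 1 kb of a member's, the 2 genes of each list with the most and the 2 with the fewest mean bases (ties by symbol), and the 3 genes most like a member. ZBTB22, GFI1B and MAP4K2 were named after their values were seen, as the starts nearest to a peak. Alternatives were windows of 1 and 10 kb, any transcript start, equal list lengths, a -log10 q minimum of 5, presence in place of length, summits in place of overlap, removal of peaks that overlap IgG peaks, no centring, the replicate number as a block, and each library left out. The marker PECAM1 was not found in the annotation under that name. Some markers, a gene of the lists and the sequence before one member's 5′ end are not reported here.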

Additional observations from a re-analysis of the deposited data

Results flagged for a closer look

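Peaks outside the comparisons were found on the alternative haplotype contigs of chromosome 6, the chromosome that carries DAXX. Every H3K4me3 library had at least 75 peaks there, and at most 135, while no IgG library had more than 1. They were set apart as H3K4me3 signal on contigs that the comparisons did not use. These contigs were not part of the reference sequence used here, so their place relative to DAXX was not tested.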

How the results depend on the processing

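Other settings gave 307 recomputed values, of which 18 reversed, while 268 stayed on the same side of their threshold or, with no test, moved by less than their limit (1 SD, or 1.5 times for a count). Among the 268, the untested difference in members per library went from 0.833 to -0.167 with equal list lengths, and the TSC1 difference from IgG, which passed no test, went to 0 with a 1 kb window and without control H3K4me3 replicate 1. The 18 were differences between the lines that had passed no test. For bases under peaks, MTOR went to -0.00358 with a 1 kb window and MEN1 to -0.0645 with a 10 kb window. For fragments, the 10 kb window gave 0.0373 for CHEK2, 0.0162 for MUTYH and 0.116 for MEN1, and the 1 kb window 0.00638 for CHEK2. Without centring, fragments went to 0.137 for CHEK2, 0.116 for MUTYH and 0.0311 for MTOR. With 1 library left out, MTOR bases ranged from -0.230 to 0.233, MUTYH fragments from -0.285 to 0.228 and CHEK2 fragments from -0.114 to 0.0994. The cause was not tested. The members passing against IgG ranged from 0 (without any one HA-Bcl-xL IgG library, where the smallest two-sided exact p is 0.0167) to 6 when 1 library was left out. Over 23 settings of the limma comparison, 0 members passed, at most 3 of all genes did, and 105 to 347 had an unadjusted p under 0.05. The difference in members per library ranged from -0.167 to 1.5, and from 0.333 to 1.5 with 1 library left out.

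Control and HA-Bcl-xL samples share replicate numbers 2 and 3, and the same-numbered deviations correlated at 0.00455 and 0.0297 over 5151 genes, so they were taken to share only a number. With a replicate block, 0 members passed in limma for bases or for fragments. Over all genes, 2 passed for bases and 1 for fragments, against 0 without the block. MTOR bases went to -0.167 and MUTYH fragments to 0.0322 under the block.

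The limits are the 2 HA-Bcl-xL H3K4me3 libraries, which leave 95% intervals over 1 wide on the log2 scale for bases under peaks, and the low depth. A missing peak does not show that the mark is absent. Without HA-Bcl-xL replicate 2 or 3, the lone sample of that line is assumed to vary like the control samples.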
